A study of Mus musculus with 30 samples.

Results

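Neurotrophins and their receptors were followed across RNA-seq libraries of sorted interneurons of the mouse medial prefrontal cortex (mPFC). The members were named as 6 genes, 2 ligands (Bdnf and Ntf3) and 4 receptors (Ntrk2, Ntrk3, Ngfr and Sort1), and all 6 were found by symbol among the 23993 genes of the table. Each library held cells that were sorted for the red reporter tdTomato, which an Sst-Cre or a Pvalb-Cre driver had switched on from the Ai9 allele in C57BL/6 mice, and 24 of 30 labelled samples were analysed. The groups were control females (7 libraries) and control males (7) carrying Sst-Cre, Sst-Cre males exposed to 14 days of chronic unpredictable stress (CUS, 3 libraries), and control males carrying Pvalb-Cre (7). All controls were labelled non-stress, and the remaining 6 samples (Sst females after CUS and Pvalb females) were not analysed here. The mice were young adults heterozygous for the driver and reporter alleles by the study's methods. The labels do not tie libraries to animals, so that p-values measure the spread between samples, which may be partly technical. The Cre driver, and not the present expression of the marker, decides which cells carry the reporter.

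Neurotrophins are secreted proteins that are made as precursors, cut by proteases and released by neurons and other cells. Mature ligands bind the Trk receptor tyrosine kinases, BDNF mainly TrkB (Ntrk2) and neurotrophin-3 mainly TrkC (Ntrk3), which signal through adaptors to the Ras-MAPK, PI3K and phospholipase C pathways. Precursors bind p75NTR (Ngfr) together with sortilin (Sort1), a sorting receptor that also guides proBDNF within the cell. In cortex, BDNF comes largely from excitatory neurons and acts on interneurons that carry TrkB, while astrocytes carry a truncated TrkB without the kinase. The values used here are summed over the transcripts of a gene and do not separate the truncated from the kinase forms.

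The genes lie on 6 chromosomes of GRCm38.p6, the RefSeq form of the mm10 build. Ntrk2 spans 58806472 to 59133970 on chromosome 13 and Ntrk3 spans 78179986 to 78581034 on chromosome 7. Sort1 spans 108283974 to 108361519 on chromosome 3 and Ngfr spans 95568818 to 95587698 on chromosome 11. The ligands Bdnf and Ntf3 lie on chromosomes 2 (109674700 to 109727043) and 6 (126101412 to 126166772).

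Before the results, some features of the libraries need stating. Male Sst titles were of 2 kinds, numbered (SST0-M, SST1-M, SST3-M, SST4-M) and date-like (called dated here), and every CUS title was dated, so each comparison was kept within a kind of title, the title series. The dated titles are not all alike: SS04031LL, SS04031RL and SS04031RR (CUS) begin as the control SS04031R does, but the controls SST040241L and SST04241LL do not. Titles were thus only partly matched in the CUS comparison. SST0-M with SST1-M, and PV0-M with PV2-M, were nearly identical (SD of their log2 ratio 0.0212 and 0.0170, against 0.267 and 0.225 for the next closest pair of their group), and each pair was averaged and counted as 1 sample, which left 22 samples. The libraries PV1-M, PV4-M and PV5-M were labelled male but held 333, 303 and 300.2 FPKM of Xist, the RNA of the inactive X chromosome, against 0.439 to 6.64 in the other 4 Pvalb libraries, 479 to 644 in the Sst females and at most 0.360 in the Sst males. They are called the high-Xist Pvalb libraries below, and results of the Pvalb comparison are given with and without them. FPKM is a fragment count scaled for transcript length and library size. The paper's methods state a general depth per sample. Reads of each library are not in the table, so no counting interval can be given.

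The defining transcripts of the labelled cells were low and those of glia high. Gad1, which makes GABA, had a median of 0.461 FPKM over the 24 libraries and a highest value of 2.05, and the GABA transporter Slc32a1 reached at most 1.84. Sst had a median of 5.78 FPKM and Pvalb 0.371. The summed level of 10 interneuron markers was 3.20 to 69.2 FPKM per sample, that of 12 microglia markers 2781 to 8588, that of 8 astrocyte markers 536 to 2297 and that of 6 oligodendrocyte markers 391 to 1967. The levels below are therefore those of the sorted material as a whole, and in such bulk samples a change in the share of a cell type cannot be told apart from a change in its RNA per cell.

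Ntrk2 was the most abundant member. It ranged from 26.2 to 169 FPKM over the 24 libraries with a median of 107, and in control females only 2.06% of the 14461 genes with a mean above 0.4 FPKM were higher. Sort1 followed at 32.4 to 62.0 FPKM and Ntrk3 at 3.03 to 26.7 FPKM, both above 0.4 FPKM in every library. Ngfr lay between 0 and 3.31 FPKM and exceeded 0.4 FPKM in 9 of 24 libraries. Of the ligands, Bdnf lay between 0 and 1.14 FPKM and exceeded 0.4 FPKM in 5 libraries, while Ntf3 was listed at 0 in 23 of 24 libraries. Since FPKM is scaled for transcript length, this order can be read between genes, with the Trk receptors and sortilin above the ligands in every library.

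**Figure D1:**
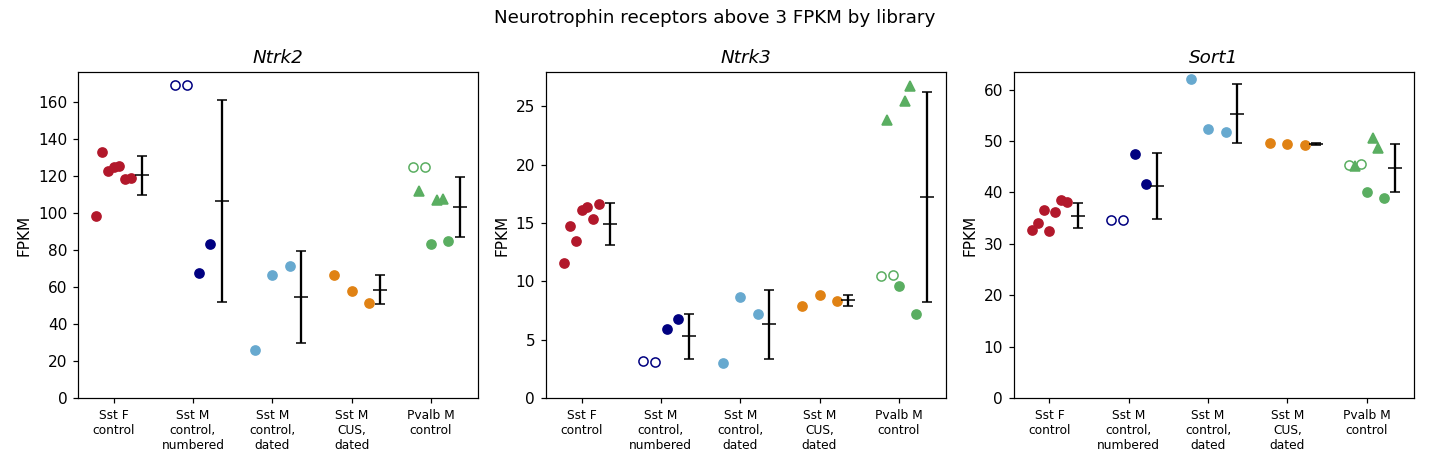
FPKM of Ntrk2, Ntrk3 and Sort1 in each of the 24 libraries (points), by group. Open circles are the near-identical pairs, triangles the libraries PV1-M, PV4-M and PV5-M with high Xist, and the bars to the right of each group the mean and SD over samples with each pair counted as 1. The Ntrk3 values of the females (11.6 to 16.7 FPKM) lie above all Sst males, and the triangles (23.8 to 26.7 FPKM) above all other libraries.

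The first comparison asked how the sexes differ in Sst cells at baseline, with 7 control females against the 3 samples of numbered control males. Ntrk3 rose in females: TrkC RNA was 11.6 to 16.7 FPKM in females (median 15.3, mean 14.9 ± 1.82 SD, n = 7) and 3.15, 5.96 and 6.76 FPKM in males (mean 5.29 ± 1.90, n = 3). The lowest female lay above the highest male, and the groups did not overlap. On the log2(FPKM + 1) scale, which understates changes of low genes, the difference was 1.38 (SE 0.21, 95% interval 0.91 to 1.85), with an adjusted p of 0.0119 in limma (Benjamini-Hochberg over 14443 genes). The two-sided exact permutation p was 0.00833, the smallest that 7 against 3 samples allow. Ntrk3 was the 1 member called of 4 tested, where 3.41% of all genes tested were called. The share of all genes without overlap between the sexes was not counted.

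Against all 6 control male samples, dated ones included (3.03, 7.25 and 8.66 FPKM), the difference in Ntrk3 was 1.29 (SE 0.22, limma adjusted p = 0.00829, exact p = 0.000583), where 11.7% of genes were called. Every one of the 7 females was still above every male. Over 18 alternative settings the difference stayed between 1.11 and 1.56 on the log2 scale and passed the threshold in 16. Both settings in which it did not pass used 3 females against 3 males.

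Ntrk3 also divided the 7 Pvalb libraries, all labelled male, along the Xist values. Ntrk3 was at 23.8, 25.4 and 26.7 FPKM in PV1-M, PV4-M and PV5-M, whereas PV0-M, PV2-M, PV3-M and PV6-M had 10.5, 10.5, 9.64 and 7.23. Over the whole series, the 10 libraries with Xist above 100 FPKM had 11.6 to 26.7 FPKM of Ntrk3 and the 14 others 3.03 to 10.5, with no overlap. These sets were formed from the values of the libraries and not from their labels, so no test was made. How many of all genes divide the libraries likewise was not counted. Ntrk2 and Sort1 did not divide in this way, at 98.4 to 133 against 26.2 to 169 FPKM for Ntrk2 and 32.4 to 50.7 against 34.6 to 62.0 FPKM for Sort1.

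**Figure D2:**
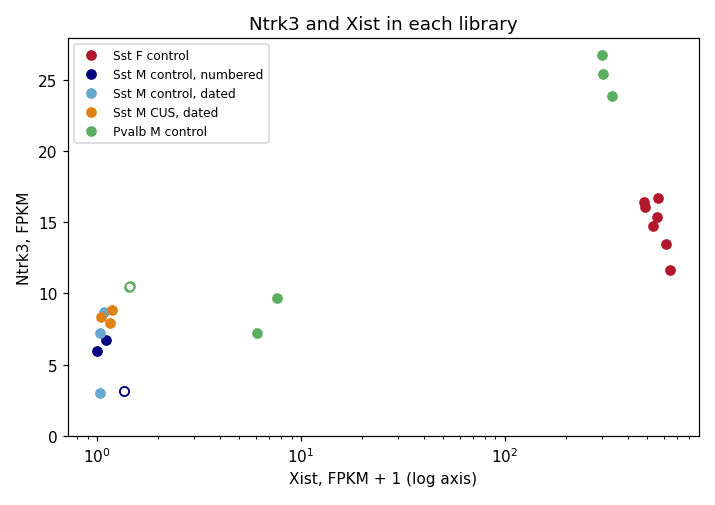
Ntrk3 (FPKM) against Xist (FPKM + 1, log axis) in each of the 24 libraries, coloured by labelled group, with open circles for the near-identical pairs. The 10 libraries on the right (7 Sst females and 3 labelled Pvalb male) have 11.6 to 26.7 FPKM of Ntrk3 and the 14 on the left 3.03 to 10.5.

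Other cell type markers moved with the sex comparison. The 7 endothelial and pericyte markers summed to 199 to 427 FPKM in females and 52.2 to 190 FPKM in numbered males, with 3 of 7 higher in females (Cldn5, Pdgfrb and Vtn) and none lower. Among the microglia markers, Cx3cr1, Csf1r and C1qb were lower in females. The part of these cells in the Ntrk3 difference was not tested. Among the Pvalb samples, the endothelial and pericyte sum was 295 FPKM in the averaged pair PV0-M/PV2-M and 20.2 to 38.9 FPKM in the others. It was 32.2, 36.5 and 38.9 FPKM in PV1-M, PV4-M and PV5-M, the libraries with the high Ntrk3 values. How this sum relates to Ntrk3 was not tested.

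No difference was called for the other receptors between the sexes. Ntrk2 was 98.4 to 133 FPKM in females (median 122) and 67.3, 83.4 and 169 FPKM in numbered males, the last being the averaged pair SST0-M/SST1-M. The females lay between the male samples, and the difference was 0.28 (SE 0.24, 95% interval -0.25 to 0.81, limma adjusted p = 0.484). Without that pair, Ntrk2 was called as well (0.67, limma adjusted p = 0.0301), with 2 members called where 6.22% of genes were. Sort1 was 32.4 to 38.6 FPKM in females (median 36.2) and 34.6, 41.7 and 47.5 FPKM in numbered males, a difference of -0.20 (SE 0.15, 95% interval -0.52 to 0.12, limma adjusted p = 0.409).

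The Trk receptors were also set against each other. The ratio of Ntrk2 to Ntrk3 within a sample was 7.15 to 9.09 in females and 53.7, 11.3 and 12.3 in numbered males, with the highest ratio in SST0-M/SST1-M, where Ntrk2 was the highest of all samples and Ntrk3 close to the lowest. The log2 ratio was lower in females by a mean difference of -1.27, with an exact p of 0.00833, the smallest possible. Dated males (7.68, 8.65 and 9.85) fell within or near the female range, so the order of the sexes in this ratio did not hold across title series.

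Ngfr was detected in every female, but unevenly. SST2-F, SST5-F and SST6-F had 2.09, 2.30 and 3.31 FPKM, and the other 4 females 0.0760 to 0.250. No other library of the series exceeded 0.811 FPKM. The numbered males had 0, 0.0863 and 0.423 FPKM, and the difference was 0.68 (SE 0.47, 95% interval -0.36 to 1.71, limma adjusted p = 0.389). The same 3 females had interneuron marker sums of 15.8, 23.9 and 24.6 FPKM whereas 3 others had 9.53 to 10.4 FPKM and SST-F had 69.2 FPKM, and the part of this in Ngfr was not tested.

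**Figure D3:**
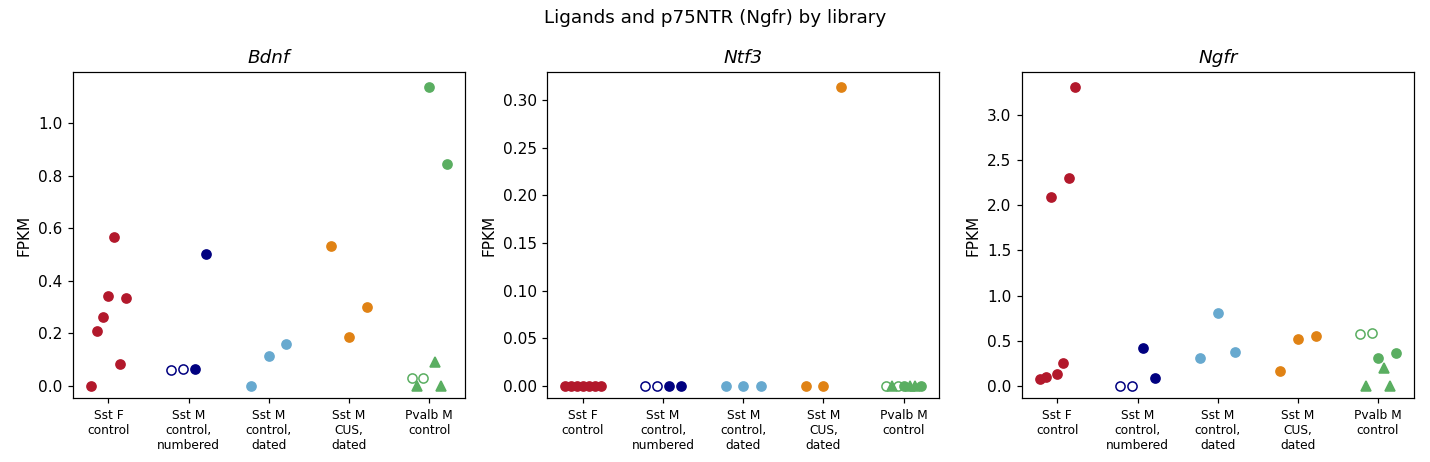
FPKM of Bdnf, Ntf3 and Ngfr in each of the 24 libraries, by group, with open circles for the near-identical pairs and triangles for PV1-M, PV4-M and PV5-M. Ngfr is above 2 FPKM in 3 females only, Bdnf is highest in PV3-M and PV6-M (1.14 and 0.847 FPKM), and Ntf3 is above 0 in 1 CUS library (0.314 FPKM).

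The ligands were near the limit of the table in both sexes. Bdnf was 0 to 0.566 FPKM in females (median 0.262) and 0.0614, 0.0638 and 0.502 FPKM in numbered males, which overlapped (exact p = 0.700). Bdnf and Ntf3 had means of 0.4 FPKM or less in all 4 comparisons, too low to be tested with limma, and have exact permutation values only. Neurotrophin-4 (Ntf5), a further ligand of TrkB, was listed at 0 in 23 of 24 libraries. A listed 0 need not mean that reads were missing. Slc1a2, a glutamate transporter of astrocytes, was at 0 in every Sst control and reached 1038 FPKM elsewhere.

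The second comparison asked how Sst and Pvalb cells differ, with 10 numbered Sst control samples against 6 Pvalb samples. None of the 4 members tested was called, where 10.2% of genes were. Leaving out PV1-M, PV4-M and PV5-M left 0.0622% of genes called (9 of 14467) and again no member.

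Ntrk3 was 3.15 to 16.7 FPKM in Sst samples (median 14.1) and 7.23 to 26.7 FPKM in Pvalb samples (median 17.2). The ranges overlapped, and the difference was -0.45 (SE 0.35, 95% interval -1.18 to 0.27, limma adjusted p = 0.419). It turned to 0.24 (SE 0.39, adjusted p = 0.818) without the 3 high-Xist libraries, and was -1.42 (SE 0.44, adjusted p = 0.256, exact p = 0.0238) against the numbered Sst males alone. Both sexes of Sst samples enter this comparison while all Pvalb samples were labelled male, so for Ntrk3 the subtype and the sex cannot be told apart in it. The low-Xist Pvalb samples (7.23, 9.64 and 10.5 FPKM) were all above the numbered Sst males (3.15, 5.96 and 6.76 FPKM), which was not tested.

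The difference in Sort1 did not pass the adjusted threshold. Sort1 was 32.4 to 47.5 FPKM in Sst samples (median 36.4) and 39.0 to 50.7 FPKM in Pvalb samples (median 45.3), a difference of -0.26 (SE 0.12, 95% interval -0.51 to -0.019, limma adjusted p = 0.149, exact p = 0.00824). With the female Sst samples alone, whose highest value (38.6 FPKM) lay just below the lowest Pvalb value (39.0), Sort1 was called (-0.32, SE 0.10, adjusted p = 0.0246), where 25.1% of all genes were. Ntrk2 had similar levels, 67.3 to 169 FPKM (median 121) in Sst and 83.2 to 125 FPKM (median 107) in Pvalb samples, with a difference of 0.14 (SE 0.17, 95% interval -0.22 to 0.51, adjusted p = 0.628). Ngfr was 0 to 3.31 and 0 to 0.577 FPKM and differed by 0.39 (SE 0.32, adjusted p = 0.459).

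Bdnf reached its highest levels in 2 Pvalb libraries, PV3-M (1.14 FPKM) and PV6-M (0.847 FPKM), with 0 to 0.0899 FPKM in the other 5. These samples also had the highest summed pan-neuronal markers (254 and 251 FPKM against 27.3 to 166 in the other Pvalb samples), and the part of this in Bdnf was not tested. Over all samples Bdnf did not differ between Sst and Pvalb (-0.060 on the log2 scale, exact p = 0.741).

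**Figure D4:**
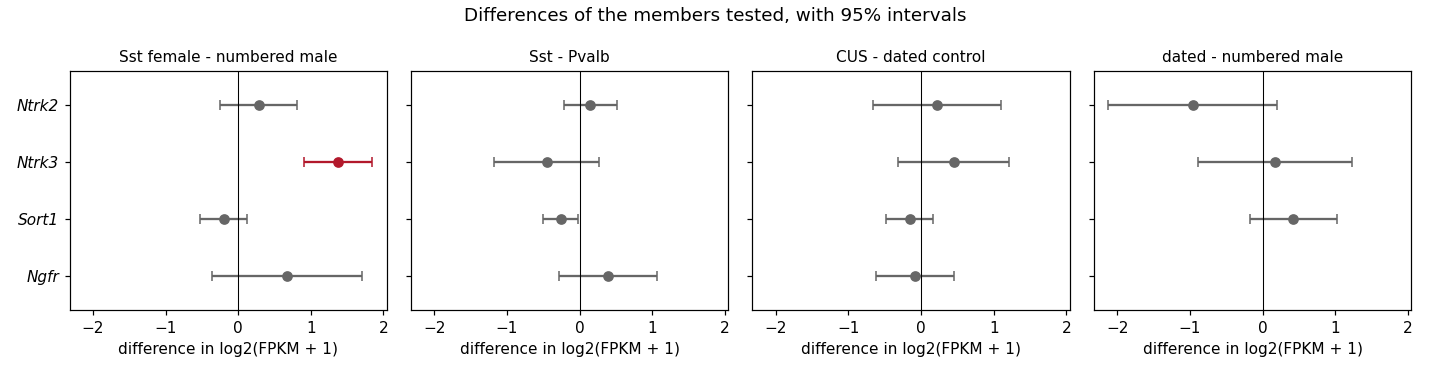
Difference in log2(FPKM + 1) of each tested member in 4 comparisons (points), with its 95% interval from limma (bars); red marks an adjusted p below 0.05. Ntrk3 between the sexes (1.38, interval 0.91 to 1.85) is the only member in red, and Ngfr has no value in the last panel because it fell under the filter.

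The third comparison asked how CUS changes Sst cells of males, with 3 CUS samples against 3 dated control samples. No member was called of 4 tested, where 0.00705% of genes were (1 of 14186, Slc1a2). A total of 956 genes had an unadjusted p under 0.05. With 3 against 3 samples the exact p cannot go below 0.1.

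Bdnf and Sort1 were the members whose CUS and control values did not overlap. A full separation of 3 against 3 samples gives the smallest possible exact p, 0.1, and its share over all genes was not counted. Bdnf was 0.186, 0.300 and 0.531 FPKM after CUS and 0, 0.113 and 0.157 FPKM in dated controls, a difference of 0.29 on the log2 scale (exact p = 0.1, the smallest possible). All values were low, and the numbered male controls (0.0614, 0.0638 and 0.502 FPKM) overlapped the CUS range. Sort1 was 49.3, 49.4 and 49.7 FPKM after CUS and 51.8, 52.3 and 62.0 FPKM in controls, a difference of -0.15 (SE 0.14, 95% interval -0.48 to 0.17, limma adjusted p = 0.703). The CUS values lay close together, and the highest control was SS04031R.

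The Trk receptors overlapped between CUS and control. Ntrk2 was 51.2, 57.9 and 66.7 FPKM after CUS and 26.2, 66.5 and 71.4 FPKM in controls (0.21, SE 0.37, 95% interval -0.67 to 1.10, adjusted p = 0.840). Ntrk3 was 7.92, 8.34 and 8.86 FPKM after CUS and 3.03, 7.25 and 8.66 FPKM in controls (0.45, SE 0.32, 95% interval -0.31 to 1.22, adjusted p = 0.670). In both genes the lowest control was SS04031R, which had the lowest astrocyte sum of all samples (536 FPKM, against 1247 and 1347 in the other dated controls). Ngfr was 0.160, 0.515 and 0.553 FPKM after CUS and 0.306, 0.374 and 0.811 FPKM in controls (-0.084, SE 0.23, adjusted p = 0.901). Ntf3 was above 0 only in the CUS library SS04031RR, at 0.314 FPKM.

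The summed oligodendrocyte markers were higher in all 3 CUS samples than in dated controls (1600.3 to 1967 against 391 to 1284 FPKM), with none of the 6 genes called. The astrocyte sum was 1888 to 2166 against 536 to 1347 FPKM, but this separation rested on Slc1a2, listed at 0 in every Sst control and the 1 called gene of the 8. Without Slc1a2, a sum added after seeing the data, the other 7 astrocyte markers summed to 1110 to 1314 FPKM after CUS, within the range of the dated controls. The microglia sum was lower after CUS, at 2781 to 3192.5 against 3469 to 7709 FPKM. The pan-neuronal sum was higher, at 23.6 to 36.2 against 20.7 to 21.0 FPKM, and no gene of these lists was called. The interneuron, excitatory neuron, oligodendrocyte precursor, and endothelial and pericyte sums overlapped between CUS and dated controls. The part of these markers in the CUS values of the members was not tested.

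The kind of title alone was compared in control Sst males, 3 dated against 3 numbered samples, since it sizes what a pooled control group would mix in. No member was called of 3 tested, where 4.11% of genes were. Sort1 was 51.8 to 62.0 FPKM in dated and 34.6 to 47.5 FPKM in numbered males, without overlap (0.42, SE 0.26, 95% interval -0.18 to 1.02, limma adjusted p = 0.360). How many of all genes were separated in this way was not counted. Ntrk2 was 26.2 to 71.4 and 67.3 to 169 FPKM (-0.96, SE 0.50, 95% interval -2.12 to 0.20, adjusted p = 0.290), and Ntrk3 differed by 0.17 (SE 0.45, adjusted p = 0.847). The ratio of Ntrk2 to Sort1 divided the title series in males, at 0.423 to 1.38 in dated and 1.42 to 4.88 in numbered samples (exact p = 0.1, the smallest possible).

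The genes most like each receptor were sought by the Pearson correlation of log2(FPKM + 1) over the 22 samples after the mean of each group and title series was subtracted, among 13255 other genes with a mean above 1 FPKM (13256 for Ngfr). For Ntrk2 these were Aqp4 (r = 0.979), the water channel of astrocyte endfeet, Fermt2 (0.977) and Prdx6 (0.974). The likeness is a description, since the samples share depth and cell composition, and no p is given. Aqp4 and Ntrk2 were lowest together in SS04031R (27.7 and 26.2 FPKM) and highest together in SST0-M/SST1-M (111 and 169 FPKM).

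**Figure D5:**
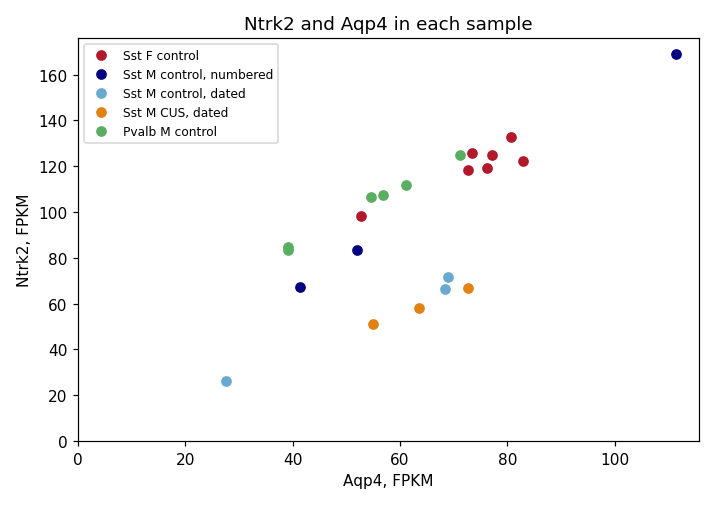
Ntrk2 against Aqp4 (FPKM) in each of the 22 samples, coloured by group. The 6 dated samples (3 controls and 3 CUS) lie on a lower line, with 0.911 to 1.03 times as much Ntrk2 as Aqp4, than the 16 numbered samples (1.48 to 2.16 times).

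The ratio of Ntrk2 to Aqp4 was 1.48 to 1.87 in females, 1.52 to 1.63 in numbered males and 1.75 to 2.16 in Pvalb samples, and 0.947 to 1.03 in dated controls and 0.911 to 0.930 after CUS. The dated and numbered samples did not overlap in it, while the sexes within numbered Sst samples did.

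For Ntrk3 the nearest genes were Grid2ip (r = 0.940), a postsynaptic partner of the delta glutamate receptor, Zhx3 (0.906) and Cdh4 (0.905), a cadherin. For Ngfr they were Gypc (0.873), Slc39a6 (0.859) and Proz (0.846), and for Sort1 Sema4g (0.903), Noa1 (0.891) and Itpkb (0.887). Cdh4 resembled Ntrk3 also between the sexes, at 2.90 to 5.21 FPKM in females and 1.23 to 1.84 FPKM in numbered males. Sema4g, a semaphorin, was 27.9 to 40.5 FPKM in Pvalb samples and 11.0 to 21.1 FPKM in all Sst groups.

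Beyond the members, 90 genes of the neurotrophin pathway were followed in 7 lists, of which 88 were in the table, among them the sortilin relatives, the proteases that process precursors, p75NTR partners, Trk adaptors, the Ras-MAPK-CREB cascade and regulators of the Bdnf gene. In the sex comparison 1 of 77 genes tested rose and 1 fell in females, a called share of 2.60% beside 3.41% of all genes, with a median log2 difference of -0.12 beside 0.054 over all genes tested. Plat, the tissue plasminogen activator that starts the cleavage of proBDNF by plasmin, rose to 7.10 to 11.0 FPKM in females from 1.62, 2.46 and 6.31 FPKM in numbered males (1.24, SE 0.29, limma adjusted p = 0.0428). Gab2, a docking adaptor below Trk receptors, fell to 11.8 to 18.5 FPKM in females from 21.0, 25.7 and 49.7 FPKM (-1.01, SE 0.24, adjusted p = 0.0453). Neither gene overlapped between the groups, but the share of all genes without overlap was not counted. The calls were close to the threshold and passed in 5 and 7 of 18 alternatives, with adjusted p up to 0.243 and 0.230.

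In the subtype comparison 1 of 77 pathway genes was higher and 4 lower in Sst than in Pvalb samples (median -0.11 beside 0.013), a called share of 6.49% beside 10.2% of all genes. Sos1, the exchange factor that loads Ras, was 9.75 to 14.5 FPKM in Sst and 5.12 to 8.31 FPKM in Pvalb samples (0.85, SE 0.13, limma adjusted p = 0.00229), without overlap. The share of all genes without overlap was not counted here either. Lower in Sst were Ngfrap1, a p75NTR partner (-0.73, adjusted p = 0.0112), Ripk2, a kinase that binds p75NTR (-1.01, adjusted p = 0.0253), Rps6ka1, a kinase below ERK (-0.78, adjusted p = 0.0201), and Sh2b2, a Trk adaptor (-0.84, adjusted p = 0.0464, past the threshold in 12 of 27 alternatives). Without the 3 high-Xist libraries, where 9 genes of the whole table were called, none of the 5 passed (adjusted p 0.105 for Sos1 to 0.515 for Sh2b2). The differences without those libraries were 0.69 for Sos1, -0.72 for Ngfrap1, -1.02 for Ripk2, -0.56 for Rps6ka1 and -0.48 for Sh2b2. The 4 genes other than Sh2b2 passed in 21 to 25 of the 27 alternatives. With the numbered male Sst samples alone, where 13 genes of the whole table were called, none of the 5 passed. The limma adjusted p then ran from 0.118 for Ngfrap1 to 0.547 for Rps6ka1, whose difference was -0.31. Sst samples of both sexes were set against Pvalb samples all labelled male, so subtype and sex cannot be told apart in these calls. Cell type markers moved in this comparison too. Of 7 endothelial and pericyte markers 5 were higher in Sst samples (median of the list 2.59), where they summed to 52.2 to 427 FPKM against 20.2 to 295 FPKM in Pvalb samples. Lower in Sst samples were the neuronal genes Snap25 and Rbfox3, the excitatory neuron genes Slc17a7 and Camk2a, the microglia genes Tmem119 and C1qc, the oligodendrocyte gene Mbp, and the astrocyte gene Slc1a2, listed at 0 in every Sst control, while the astrocyte gene Slc1a3 was higher (0.71). The part of these cells in the pathway calls was not tested.

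In CUS none of 77 pathway genes tested was called (median -0.020 beside 0.0023). Among the sortilin relatives, which were named after their values were seen, CUS and control values did not overlap for Sorcs1 and Sorcs3. The share of all genes without overlap was not counted. Sorcs1 was at 5.40, 5.71 and 6.75 FPKM after CUS and 0.995, 2.78 and 3.82 FPKM in dated controls (1.06, SE 0.33, limma adjusted p = 0.647). Sorcs3 was at 0.599, 0.639 and 1.14 FPKM after CUS and 0.369, 0.452 and 0.553 FPKM in dated controls (0.29, SE 0.20, limma adjusted p = 0.667). Sorl1 and Sorcs2 were at 15.3 to 18.7 and 14.6 to 18.4 FPKM after CUS and 14.3 to 18.2 and 7.83 to 19.4 FPKM in controls, with overlap.

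Between the title series, 3 of 76 pathway genes were lower in dated males and none higher (median 0.076 beside -0.0042), all in the Ras-MAPK-CREB list, a called share of 3.95% beside 4.11% of all genes. Nras was 5.58, 6.42 and 7.07 FPKM in dated and 38.2, 38.6 and 57.9 FPKM in numbered males (-2.62, SE 0.28, adjusted p = 0.00656), and Rap1a (-1.75, adjusted p = 0.0282) and the ERK-activated kinase Rps6ka3 (-1.39, adjusted p = 0.0488) followed. Nras passed in all 11 alternatives, Rap1a in 6 (adjusted p up to 0.151) and Rps6ka3 in 4 (up to 0.211). The CUS samples, also dated, had 5.78 to 6.25 FPKM of Nras, and the numbered females and Pvalb samples 28.7 to 42.7, so that Nras divided the series by title and not by sex, subtype or stress.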

How the data were processed

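The authors deposited 1 table of FPKM with 23993 genes, identified by symbol, and 24 libraries. Their methods name RiboGone depletion, trimming, alignment to mm9 with TopHat2 and to mm10 with HISAT2, and StringTie, whereas the submitters' processing notes name TopHat2, Cufflinks, Cuffdiff and mm10. They also state removal of samples more than 2 SD from the group mean and of batch effects with ComBat, but not whether this applies to the deposited FPKM. The authors tested counts with DESeq2, and counts were not used here.

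Samples were grouped by the labels, and near-identical libraries (log2 ratio over genes above 5 FPKM with an SD below 10% of the SD of the next closest pair) were averaged. In each comparison, genes whose mean exceeded 0.4 FPKM entered a two-sided limma test (3.58.1, in R 4.3.3, trend and robust) of log2(FPKM + 1). The Benjamini-Hochberg method was applied to all genes of a comparison, with calls at an adjusted p below 0.05. Members under the filter were compared by two-sided exact permutation tests. Python 3.11.15, pandas 2.3.3 and numpy 2.4.6 were used for the other steps, and the procedure was tested on simulated data. The members, gene lists and tests were chosen with earlier results of these data known. Named genes were the members, up to 3 called genes per pathway list and comparison, markers and the 3 genes most like each member. Ntf4 and Bex3 were not found by symbol. Some genes that this rule or the lists hold are not reported here. Alternatives were the filter, the pseudocount, the scaling, the controls used, left-out samples and a block by title number. Neither library depth nor counts are given by the table. Whether title numbers pair samples was checked by the correlation of deviations from the group means.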

Additional observations from a re-analysis of the deposited data

Results flagged for a closer look

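Of 15 member and group sets of 6 or 7 samples, 2 held a sample far from the others by Dixon's criterion. Chance meets this criterion in about 1 of 20 sets. Bdnf in the 6 control Sst male samples, dated and numbered together, was highest in SST4-M at 0.502 FPKM. Its gap to the next sample was 0.686 times the range of the group. Ntrk2 in the 7 Sst females was lowest in SST-F at 98.4 FPKM, with a gap of 0.584 times the range. SST-F also had the highest interneuron, microglia and endothelial sums of the females (69.2, 6223 and 427 FPKM). Its astrocyte sum (806 FPKM) and its Aqp4 (52.7 FPKM) were the lowest of the females. The part of these cells in its Ntrk2 value was not tested.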

How the results depend on the processing

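Of 350 values of 5 members (all but Ntf3) under alternatives, 314 kept direction and side of the threshold, 30 turned direction, 4 passed it where the main value did not and 2 no longer passed. Ntrk3 between the sexes kept its direction in all 18 alternatives. Reads of each single library are not given, so that Bdnf, Ntf3 and Ngfr, near 0 FPKM, are the members whose precision is least known.

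No sign of pairing by title number was seen, as the deviations of samples of the same number correlated at -0.0402 to 0.0579. The deviations were taken from means of few samples, so a pairing could go unseen. The fit with a replicate block on 3 females and 3 males called 11 genes and 0 members (Ntrk3 1.46, limma adjusted p = 0.229), and the same samples without the block, an alternative chosen after seeing the data, 24 genes and 0 members (Ntrk3 adjusted p = 0.0844). For female Sst and Pvalb samples, the replicate block gave 3983 genes and 1 member (Sort1, adjusted p = 0.0470), and the same samples without it, also chosen after seeing the data, 4572 genes and 1 member (Sort1, adjusted p = 0.0213). In both of these fits the difference was 0.011 for Bdnf and 0.016 for Ntrk3, against -0.060 and -0.45 with all samples.

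With all male controls, 1699 genes were called between the sexes in place of 493. In the subtype comparison (1478 genes), female Sst samples alone gave 3638 genes and 1 member, numbered males alone 13 genes, and leaving out the libraries with Xist above 100 FPKM 9 genes. In CUS (1 gene), controls of both sexes gave 6 genes and numbered male controls 2309. Between the title series (585 genes), no filter gave 381 genes and quantile normalization 1106. The cause was not tested.

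Differences of members turned direction as follows, all without a call. Quantile normalization gave -0.18 for Bdnf and 0.040 for Sort1 between the sexes. In the subtype comparison, a pseudocount of 0.1 gave 0.18 for Bdnf, all Sst controls -0.12 for Ntrk2, numbered males alone -0.053 for Ntrk2 and -0.083 for Ngfr, and the samples without high Xist 0.24 for Ntrk3. In CUS, Ntrk2 was -0.27 with all male controls, -0.68 with controls of both sexes and -0.75 with numbered males, and Ntrk3 was -0.16 with both sexes. Ngfr was 0.095 with all male and 0.27 with numbered male controls, and Sort1 was 0.056, 0.28 and 0.27 with all male, both-sex and numbered male controls.

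Leaving out each sample in turn gave 100 (without SST3-M) to 1787 genes (without SST-F) and 1 to 2 members between the sexes, 554 (without PV4-M or PV5-M) to 2883 genes (without PV0-M/PV2-M) between subtypes, 1 to 16 genes (without SS04031R) in CUS, and 54 (without SST040241L) to 1962 genes (without SST0-M/SST1-M) between title series. The Bdnf difference ranged from -0.022 to 0.23 between the sexes, -0.13 to 0.088 between subtypes and -0.22 to 0.034 between title series. In CUS, Ntrk2 ranged from -0.24 (without SS04031R) to 0.47 and Ngfr from -0.17 to 0.061, and Ntrk3 between title series from -0.10 (without SST0-M/SST1-M) to 0.56.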
